A study of Homo sapiens with 18 samples.

Results

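The BCL2 family regulators of apoptosis described here are 10 genes, BCL2, BCL2L1, MCL1, BAK1, BCL2L11, BID, BMF, BIK, HRK and BAD, chosen by name from the 23399 genes of the expression table. All 10 were found and all 10 passed the filter on low values. Expression was measured by RNA-seq of total RNA depleted of ribosomal RNA in U2OS-MycER cells. U2OS cells come from a human osteosarcoma, and every group, controls included, carried a retrovirally delivered fusion of Myc with the estrogen receptor (MycER), which 4-hydroxytamoxifen (OHT, 400 nM) activates. Cells received a pool of siRNAs that target the cohesin gene RAD21 (siRAD21), or an siRNA against Renilla luciferase (siCtrl). OHT or its solvent ethanol was added at the same time, and cells were collected 24 or 48 h later. The resulting 8 groups hold 18 libraries: 2 per group, except for 3 in the control siRNA groups at 48 h (siCtrl and siCtrl OHT).

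BCL2 family proteins decide whether the outer mitochondrial membrane stays intact. BCL2, BCL-XL (the main product of BCL2L1) and MCL1 hold the effectors BAK1 and BAX in check, while the BH3-only proteins (here BIM, encoded by BCL2L11, with BID, BMF, BIK, HRK and BAD) bind the protective members or activate the effectors. Once the effectors open the membrane, cytochrome c reaches APAF1 and caspase 9 is activated. Myc is known both to drive growth and to sensitise cells to this route, and BCL2 and MCL1 are classical partners of Myc in tumours. Much of the control of these proteins is by cleavage, phosphorylation and degradation, none of which RNA-seq measures.

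The BH3 segment is what the 10 members have in common, and it is shown for the 4 genes called upon RAD21 silencing at 48 h, with BCL2 and BAK1 added to represent the protective and the effector class. Capitals mark a leucine codon, any 3 codons, a codon for glycine, alanine or serine, and an aspartate codon, with 3 further codons on each side. The sequences are coding sequence of GENCODE transcripts on GRCh37 (the build of hg19), read in the direction of the gene. They lie at chr18:60985585-60985620 (minus strand, exon 2) for BCL2, chr20:30309728-30309763 (minus, exon 2) for BCL2L1, chr6:33543167-33543202 (minus, exon 4) for BAK1, chr22:18222184-18222219 (minus, exon 4) for BID, chr15:40396399-40396434 (minus, exon 4) for BMF and chr22:43523713-43523748 (plus, exon 3) for BIK.
BCL2: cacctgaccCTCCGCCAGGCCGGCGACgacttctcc
BCL2L1: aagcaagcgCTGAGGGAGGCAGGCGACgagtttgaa
BAK1: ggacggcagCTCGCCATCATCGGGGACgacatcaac
BID: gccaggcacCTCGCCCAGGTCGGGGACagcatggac
BMF: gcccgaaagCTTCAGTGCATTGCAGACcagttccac
BIK: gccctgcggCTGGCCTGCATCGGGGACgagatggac

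The pattern was found in all 10 members, and BID held it a further time upstream of the segment shown. It is short, and 35.1% of 19251 coding transcripts contain it, so a match on its own does not mark a BH3 segment.

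MycER binds DNA with MAX at the E-box CACGTG, which reads the same on both strands. RefSeq promoter windows (GRCh38.p14, 250 bases before to 50 after each gene start) were held for 8 members, not for MCL1 and BIK. BID was the 1 member with this E-box, at chr22:17774072-17774101 on the minus strand, shown with the motif in capitals.
BID promoter: ttgtgtcctctcCACGTGgcctggggattc
Of all 27305 genes with windows, 8.77% hold the motif. The match is a description of the sequence and says nothing of binding in these cells.

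The values are eRPKM (exonic reads scaled to exon length and to the mapped reads of the library), from 9647501 to 12678599 reads assigned to exons per library. Within a group, log2 values over all genes had a Pearson r of 0.990 to 0.994 between libraries. At 48 h the pair of siRAD21 OHT libraries differed by less than the sampling noise of their reads (chi-square 0.982 per gene, against 1.04 to 2.89 in other pairs) and were counted as 1 sample in means. With the noise set lower to allow for duplicate removal, they differed slightly more than it (1.03 per gene, z = 2.4). The model described below keeps both libraries as separate samples, so its SEs and p-values for this group do not count them as 1. Silencing was seen in each siRAD21 library, with RAD21 at 11.1 to 11.3 eRPKM at 48 h against 89.0 to 96.9 in the siCtrl libraries, and at 15.6 to 18.6 against 66.4 to 72.2 at 24 h, with and without OHT. MYC was at 52.3 eRPKM in siCtrl and 57.0 in siRAD21 cells at 48 h, and at 44.9 and 34.4 in the same cells with OHT. At 24 h it was at 53.45 in siCtrl and 44.71 in siRAD21 cells, and at 41.11 and 30.02 with OHT. The paper reported lower Myc upon RAD21 silencing, in mRNA by RT-PCR and in protein by western blot. Reads of the transgene were not separated from those of MYC. Among 6 osteoblast and mesenchymal markers, VIM, SPARC, COL1A1 and RUNX2 were present, while COL1A2 (at most 0.109 eRPKM) and TWIST1 (at most 0.0516) were at or near 0. The summed level of 4 epithelial markers was 5.24 to 6.33 eRPKM in siCtrl and 11.8 to 14.4 in siCtrl OHT cells at 48 h. This sum was mostly EPCAM, with a mean over all libraries of 6.66 eRPKM, against 1.22 for CDH1, 0.118 for CDH3 and 0.073 for ESRP1. The part of the sum in the changes with OHT given below was not tested. In bulk RNA, fewer cells of a type and less RNA per cell cannot be told apart.

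Differences are log2 fold changes of eRPKM + 0.5 from 1 limma model over all 18 libraries, adjusted with the Benjamini-Hochberg procedure over the 14993 genes with a mean of at least 1 eRPKM. A gene was called differentially expressed (a DEG) where the adjusted p was under 0.05 and the change was past 0.5 on the log2 scale in either direction. Comparisons against the same control libraries are not independent of each other.

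The 10 members differed widely in level. Over all libraries, MCL1 had the highest mean (81.4 eRPKM, range 70.6 to 94.9), followed by BCL2L1 (77.3, range 62.9 to 110). BAK1 came next (32.5, range 22.9 to 45.1), then BAD (25.5, range 19.1 to 31.6), BID (19.7, range 12.8 to 24.9) and BIK (12.0, range 5.71 to 18.8). BCL2L11 (7.50), HRK (4.57), BMF (4.46) and BCL2 (4.31) were the lowest. Thus the transcripts of the protective class were mostly MCL1 and BCL2L1. The order of the means changed between groups. For example, BCL2L1 lay above MCL1 in siRAD21 cells at 48 h (107.6 and 92.4 eRPKM). BAD lay above BAK1 in siCtrl cells at 24 h (30.2 and 24.7), and BMF above BIK in siCtrl cells at 48 h (11.8 and 7.33). Among the last 3, BCL2 had the lowest mean in siCtrl cells at 48 h and in siRAD21 cells at both times. HRK was the lowest in siCtrl cells at 24 h, and BMF in all groups with OHT. The ranges of neighbours in the order over all libraries overlapped except between BCL2L1 and BAK1, and between BCL2L11 (from 5.80) and HRK (up to 5.75). BMF varied most, by 15.7-fold between its lowest and highest library, and MCL1 least, by 1.34-fold.

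**Figure D1:**
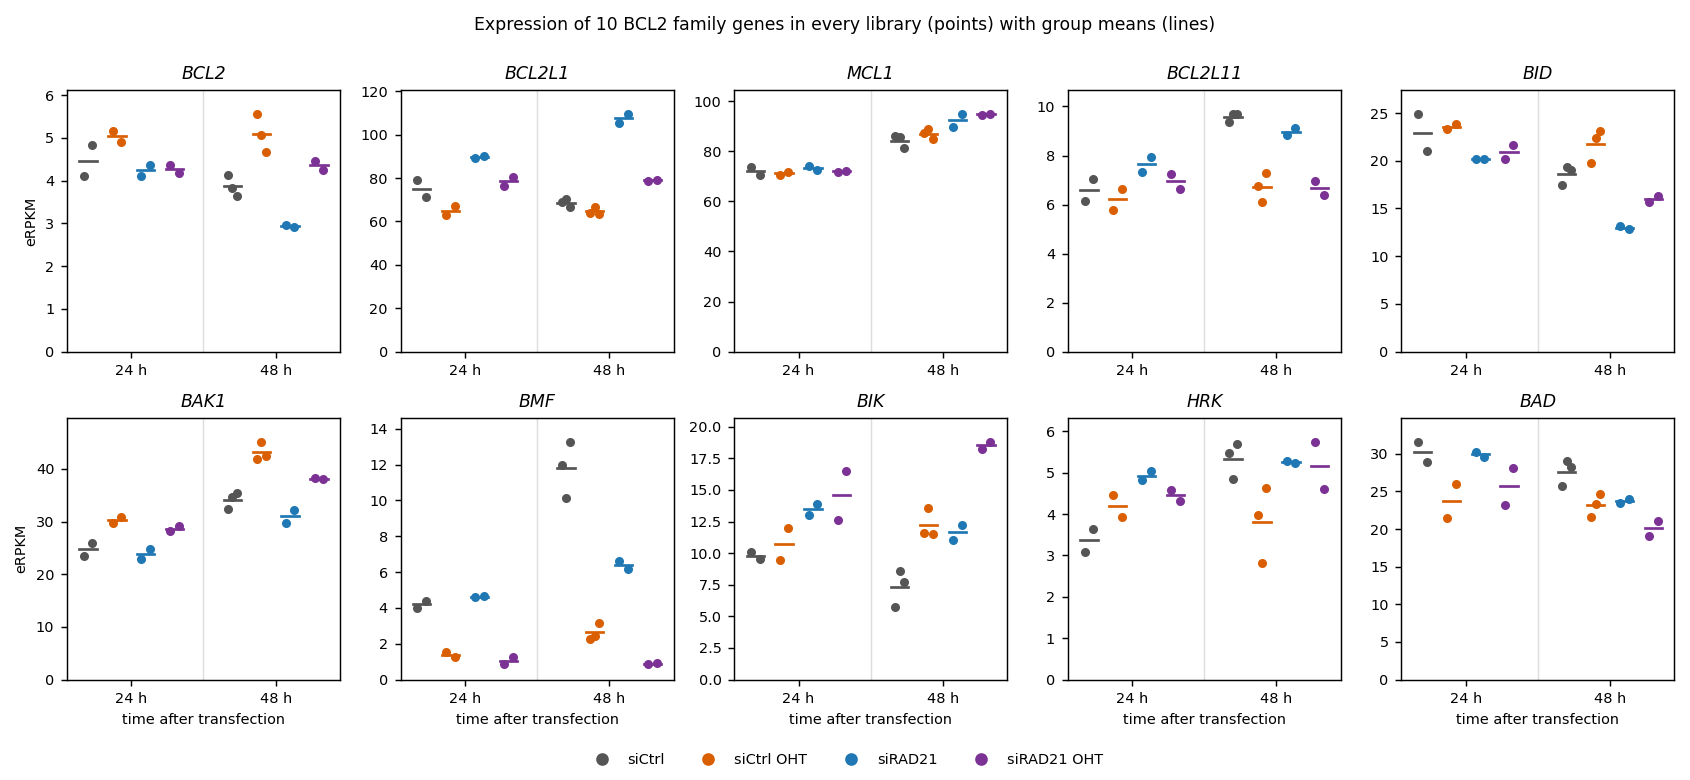
Expression (eRPKM, axes from 0) of each of the 10 genes in every library (points) with the group mean (line), by time after transfection and condition (grey siCtrl, orange siCtrl OHT, blue siRAD21, purple siRAD21 OHT). BMF reaches 10.1 to 13.3 eRPKM in siCtrl cells at 48 h and less than 1 in both siRAD21 OHT libraries, whereas MCL1 stays between 70.6 and 94.9 in every library.

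RAD21 silencing made 0 of the 10 members DEGs at 24 h (8.43% of all tested genes were; 3 members had an unadjusted p below 0.05 in limma, and voom called HRK) and 4 at 48 h (23.7%). OHT in siCtrl cells made 1 member a DEG at 24 h (8.78% of tested genes) and 2 at 48 h (17.9%). In RAD21-depleted cells OHT also made 1 member a DEG at 24 h (11.9%) and 2 at 48 h (28.6%). With 10 genes, nothing is read from these counts about the family as a group. The median log2 fold change of the members at 48 h was -0.11 with siRAD21, -0.02 with OHT in siCtrl cells and 0.00 with OHT in siRAD21 cells, against -0.01, -0.01 and -0.02 over all tested genes. With silencing at 48 h BCL2L1 and BIK were higher and BID and BMF lower, and with OHT at 48 h BMF was lower and BIK higher in both siCtrl and siRAD21 cells.

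**Figure D2:**
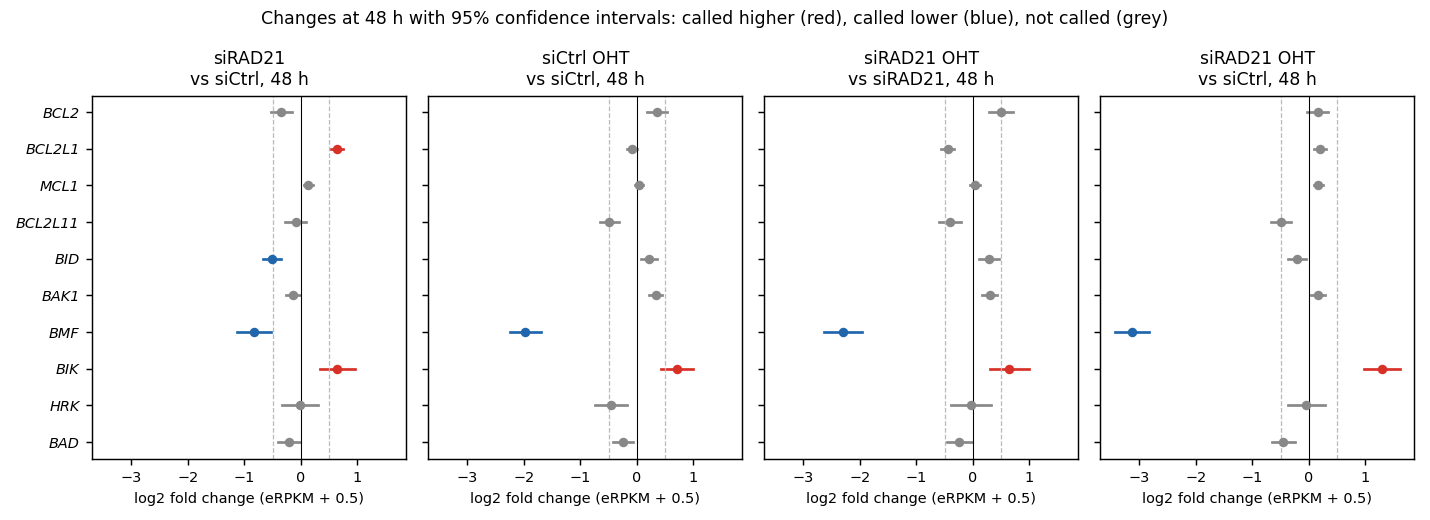
Log2 fold change (of eRPKM + 0.5) of each member at 48 h with its 95% confidence interval in 4 comparisons; red and blue mark genes called higher and lower, grey those not called, and dashed lines the thresholds of 0.5 and -0.5. BMF lies furthest left in every panel, at -0.83, -1.98, -2.31 and -3.14, and BIK is called higher in all 4.

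Among BCL2, BCL2L1 and MCL1, BCL2L1 was the one called higher upon RAD21 silencing. At 48 h it was at 69.1, 70.5 and 66.7 eRPKM in siCtrl cells and at 106 and 110 in siRAD21 cells, with no overlap. BCL2L1 was thus 1.56-fold higher on average, with a log2 fold change of 0.64 (SE 0.048, adjusted p = 7.59e-08). At 24 h the siCtrl libraries had 79.2 and 71.2 eRPKM and the siRAD21 libraries 89.4 and 90.3, a difference of 0.26 on the log2 scale (adjusted p = 2.52e-03) that did not reach the fold threshold. The effect at 48 h exceeded that at 24 h by 0.38 (SE 0.072, adjusted p = 1.69e-03), also short of 0.5.

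The difference of BCL2L1 with OHT depended on RAD21. With OHT at 48 h the siCtrl libraries had 64.1, 66.6 and 63.3 eRPKM and the siRAD21 libraries 78.7 and 79.3, so the latter lay between siCtrl and siRAD21 cells without OHT. The log2 fold change with OHT was -0.09 (adjusted p = 0.104) in siCtrl cells and -0.44 (adjusted p = 7.10e-06) in siRAD21 cells. The interaction, which is the difference of these effects, was -0.36 (SE 0.068, adjusted p = 3.03e-03). Neither value reached the fold threshold, and 0 members were called in the interaction at 48 h (7.3% of tested genes were) or at 24 h (0.0%; 906 of all genes had an unadjusted p below 0.05, and 0 members did; voom called 19 genes). The duplicate removal of the authors bears on this gene, since its reads reached 31.2 to 57.6% of the limit that removal sets. With removal undone, an alternative chosen after seeing the data, the effect of siRAD21 at 48 h was 0.91, the effect of OHT in siRAD21 cells -0.67 and the interaction -0.55, and all 3 were called. The annotation on GRCh37 shares 1735 exon bases of BCL2L1 with ABALON, where reads of the pair cannot be told apart.

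MCL1, whose short-lived protein makes it a fast regulator, was not called in any of the 15 comparisons. At 48 h its libraries had 85.9, 85.5 and 81.3 eRPKM in siCtrl cells, 89.9 and 94.9 in siRAD21 cells, 87.1, 88.8 and 85.0 in siCtrl OHT cells, and 94.5 and 94.8 in siRAD21 OHT cells. The siRAD21 and siCtrl groups did not overlap, and the log2 fold change was 0.13 (95% confidence interval 0.05 to 0.21, adjusted p = 8.22e-03). The difference with OHT was 0.05 (interval -0.03 to 0.12) in siCtrl cells and 0.04 (interval -0.05 to 0.12) in siRAD21 cells. A change past 0.5 therefore lay outside all 3 intervals, which are those of the values after duplicate removal. The reads of MCL1 reached 40.0 to 49.0% of the limit that removal sets, and with removal undone the siRAD21 effect was 0.21. ADAMTSL4 and its antisense gene share 328 annotated exon bases with MCL1.

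BCL2, the founding member of the family, was likewise called in none of the 15 comparisons. It had 4.13, 3.83 and 3.64 eRPKM in siCtrl cells at 48 h and 2.97 and 2.90 in siRAD21 cells. The log2 difference of -0.34 (adjusted p = 4.62e-03) was not called. With OHT it was at 5.56, 5.07 and 4.66 in siCtrl cells and at 4.47 and 4.25 in siRAD21 cells. The differences with OHT were 0.36 (adjusted p = 1.86e-03) and 0.50 (0.499 before rounding, adjusted p = 5.77e-04), both under the threshold. The latter was so near to it that leaving out siRAD21 48 h replicate 1 (0.51) or siRAD21 OHT 48 h replicate 2 (0.53) made it a call, as did quantile normalization (0.75), voom (0.57), a pseudocount of 0.1 (0.55) and median centring (0.53).

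Summed over the protective class, levels at 48 h were 152 to 160 eRPKM in the siCtrl libraries and 198 to 207 in the siRAD21 libraries. The BH3-only genes together had 75.7 to 83.6 eRPKM in siCtrl cells and 68.4 to 69.5 in siRAD21 cells. The former differed mainly through BCL2L1, with a mean of 68.8 eRPKM in siCtrl and 108 in siRAD21 cells. The latter differed mainly through BID (18.6 and 12.97), BMF (11.8 and 6.39) and BAD (27.6 and 23.7), while BIK was higher. The sums are given without a test.

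BAK1, the effector that resides in the mitochondrial membrane, was higher in all libraries with OHT than in those of the matching cells without, by less than the fold threshold. At 48 h it had 32.3, 34.6 and 35.5 eRPKM in siCtrl cells and 41.8, 45.1 and 42.4 in siCtrl OHT cells. In RAD21-depleted cells it had 29.7 and 32.3 eRPKM without and 38.2 and 38.1 with OHT. The groups did not overlap in either case, and the log2 fold changes were 0.33 (adjusted p = 9.39e-05) and 0.30 (adjusted p = 1.07e-03). At 24 h they were 0.29 (adjusted p = 4.11e-03) and 0.26 (adjusted p = 5.97e-03). All 4 values were short of 0.5, so BAK1 was not called in any of them. RAD21 silencing gave -0.05 at 24 h and -0.14 at 48 h (adjusted p = 0.0558). With time in siCtrl cells the value was 0.46 (adjusted p = 3.27e-05), and it was called without siCtrl 24 h replicate 2 (0.53), with median centring (0.545) and with quantile normalization (0.54).

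BMF, a BH3-only gene whose protein is held on the cytoskeleton until it is released, changed more than any other member. Its gene lies at chr15:40380091-40401093 on the minus strand. In siCtrl cells BMF rose with time, from 3.98 and 4.41 eRPKM at 24 h to 12.0, 10.1 and 13.3 at 48 h (log2 fold change 1.38, SE 0.142, adjusted p = 6.10e-06). With OHT it was lower at both times, at 1.51 and 1.24 eRPKM at 24 h and 2.29, 2.45 and 3.14 at 48 h. It was thus still higher at 48 h than at 24 h, 1.91-fold between the means against 2.81-fold without OHT. No OHT library reached the lowest siCtrl library of its time point. OHT thus lowered BMF by a log2 fold change of -1.32 at 24 h (SE 0.156, adjusted p = 3.75e-05) and -1.98 at 48 h (SE 0.127, adjusted p = 2.53e-08).

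RAD21 silencing lowered BMF at 48 h and left it uncalled at 24 h. The siRAD21 libraries had 4.59 and 4.68 eRPKM at 24 h, just above the siCtrl libraries, with a log2 fold change of 0.13 (95% confidence interval -0.20 to 0.47). At 48 h they had 6.62 and 6.15 eRPKM, below all 3 siCtrl libraries, with -0.83 (SE 0.142, adjusted p = 1.93e-04). The difference between these effects was -0.96 (SE 0.211, adjusted p = 5.17e-03), and BMF was the 1 member called there (10.7% of tested genes were). For the OHT effect the 48 h value minus the 24 h value was -0.65 (adjusted p = 0.0896), and 0 members were called (1.77% of tested genes; 4 members had an unadjusted p below 0.05 in limma, and voom called HRK). Without siCtrl OHT 48 h replicate 3, BMF (-0.77) and HRK (-0.88) were called.

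BMF was lowest where both treatments met. The siRAD21 OHT libraries had 0.846 and 1.25 eRPKM at 24 h and 0.889 and 0.895 at 48 h, the latter from 41 and 42 reads. Against siRAD21 cells the log2 fold change was -1.74 at 24 h (adjusted p = 2.42e-06) and -2.31 at 48 h (adjusted p = 3.40e-08). Against siCtrl OHT cells it was -0.29 (adjusted p = 0.238) at 24 h, when 0 members were called (6.47% of tested genes were; 3 members had an unadjusted p below 0.05 in limma, and 0 were called by voom). At 48 h it was -1.16 (adjusted p = 1.54e-05), with BIK the other of 2 members called (16.2%). The comparison with untreated siCtrl cells at 48 h gave -3.14 (SE 0.142, adjusted p = 3.65e-10), a 13.2-fold lower mean and the change of rank 35 by size among the 14993 tested genes. On the log2 scale the effects did not differ from additive ones beyond their error, with an interaction of -0.33 at 48 h (95% confidence interval -0.76 to 0.10, adjusted p = 0.289). Over the alternatives this value ranged from -0.65 to -0.15 and was not called in any. Of the annotated exon bases of BMF, 461 are shared with BMF-AS1, and the kit did not keep the strand, so reads of the pair cannot be told apart there.

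The genes whose 8 group means followed those of BMF most closely were ZNF608 (r = 0.990) and TPPP (0.989), ranked over all tested genes. The points share their libraries, and the values describe likeness of pattern. ZNF608 had 46.1 eRPKM in siCtrl cells at 48 h, 36.5 in siRAD21, 22.5 in siCtrl OHT and 16.8 in siRAD21 OHT cells. TPPP had 8.71, 6.90, 4.65 and 3.30 eRPKM in the same order. The order of these 4 conditions was that of BMF, but the span was narrower in both genes.

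**Figure D3:**
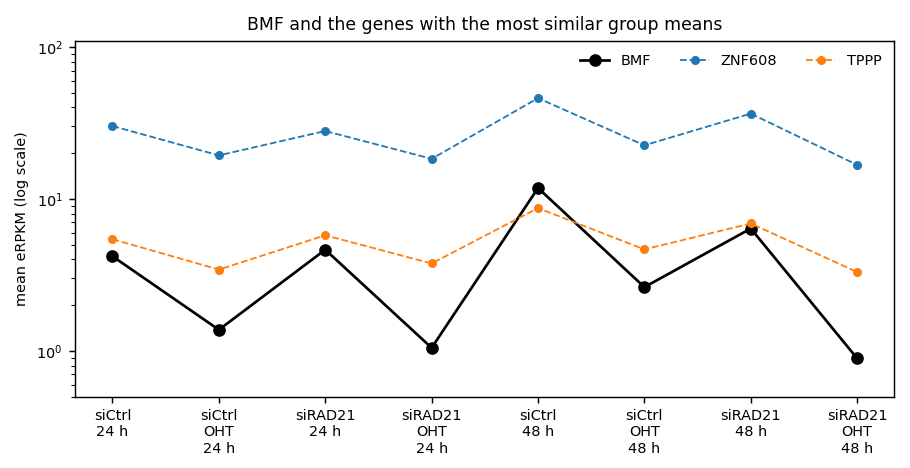
Mean eRPKM (log scale) of BMF (black), ZNF608 and TPPP, the tested genes with the highest Pearson r to it, in the 8 groups. All 3 genes are highest in siCtrl cells at 48 h, and BMF falls to 0.892 eRPKM in siRAD21 OHT cells at 48 h.

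BIK, a BH3-only gene whose protein sits in the endoplasmic reticulum, changed in the opposite direction to BMF with both treatments at 48 h. At 24 h silencing left both genes above the siCtrl libraries and uncalled, with BIK at 0.44 on the log2 scale (adjusted p = 0.061 in limma). With OHT in siCtrl cells at 24 h, BIK changed by 0.12 (adjusted p = 0.665). At 48 h (gene at chr22:43506756-43525718, plus strand) it had 5.71, 8.60 and 7.69 eRPKM in siCtrl cells, 11.1 and 12.2 in siRAD21 cells, 11.6, 13.6 and 11.5 in siCtrl OHT cells, and 18.3 and 18.8 in siRAD21 OHT cells. Each treated group lay above all siCtrl libraries, and the doubly treated libraries lay above all others. RAD21 silencing raised BIK by 0.65 on the log2 scale (SE 0.148, adjusted p = 1.81e-03). OHT raised it by 0.71 in siCtrl cells (adjusted p = 4.17e-04) and by 0.65 in siRAD21 cells (adjusted p = 3.31e-03). The call with siRAD21 rests on siCtrl 48 h replicate 1, without which the value was 0.49. Under active MycER, silencing raised BIK by 0.59 (adjusted p = 5.08e-03).

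Both treatments together raised BIK by 1.30 over siCtrl cells at 48 h (2.53-fold between the means, SE 0.148, adjusted p = 3.39e-06), where BMF and BIK were the 2 members called (28.0% of tested genes). The interaction was -0.06 (95% confidence interval -0.51 to 0.38). At 24 h the same comparison called BMF (-1.61) and BIK (0.54, adjusted p = 0.0188), 2 members against 13.1% of tested genes. The call of BIK at 24 h was lost without siCtrl 24 h replicate 1 (0.58, adjusted p = 0.0506), siCtrl 24 h replicate 2 (0.50, adjusted p = 0.0939) or siRAD21 OHT 24 h replicate 2 (0.35, adjusted p = 0.198, the largest over its alternatives). Without siRAD21 OHT 24 h replicate 1, BIK was called against siCtrl OHT cells at 24 h (0.61 in place of 0.42), whereas the value was 0.24 (adjusted p = 0.488) without replicate 2 of the same group and 0.26 (adjusted p = 0.466) without siCtrl OHT 24 h replicate 1. With time in siCtrl cells it was at -0.41 (adjusted p = 0.0352), without siCtrl 48 h replicate 2 at -0.53 and called, and without siCtrl 48 h replicate 1 at -0.25 (adjusted p = 0.133). BIK is the shortest member, and its values rest on 53 to 176 reads per library.

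BID, which caspase 8 cleaves to link death receptors with mitochondria, was lower upon RAD21 silencing. It had 17.4, 19.4 and 19.1 eRPKM in siCtrl cells at 48 h and 13.1 and 12.8 in siRAD21 cells, without overlap. The log2 fold change was -0.50 (-0.504 before rounding, SE 0.075, adjusted p = 5.50e-05). The size lay on the threshold: it was -0.48 without siCtrl 48 h replicate 2, -0.49 without siCtrl 48 h replicate 3 or siRAD21 48 h replicate 2, -0.49 with a pseudocount of 1 and -0.47 with a replicate block, and none of these was called. With OHT, BID was at 19.8, 22.4 and 23.1 eRPKM in siCtrl cells and at 15.6 and 16.3 in siRAD21 cells, a difference of -0.43 with silencing (adjusted p = 3.29e-04). At 24 h the siRAD21 effect was -0.17 (adjusted p = 0.144).

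BCL2L11, which encodes the potent activator BIM, was one of 3 members called with time in siCtrl cells, all of them higher (12.4% of tested genes were called, and 5.53% were called higher), the others being BMF and HRK. It went from 6.14 and 7.06 eRPKM at 24 h to 9.37, 9.70 and 9.69 at 48 h (log2 fold change 0.51, adjusted p = 3.27e-04), and a pseudocount of 1 (0.48) ended this call. Its OHT libraries at 48 h stayed lower, at 6.74, 6.11 and 7.28 eRPKM in siCtrl cells and 6.95 and 6.38 in siRAD21 cells, below all libraries of the matching cells without OHT. The differences with OHT were -0.49 (adjusted p = 1.09e-04) and -0.40 (adjusted p = 2.03e-03), neither past 0.5. Without siCtrl OHT 48 h replicate 3 the former was -0.54, and without siCtrl 48 h replicate 1 it was -0.50 (-0.502 before rounding), both called. Against untreated siCtrl cells the siRAD21 OHT value was -0.49 (adjusted p = 1.87e-04), and without siCtrl 48 h replicate 1 (-0.51) or siRAD21 OHT 48 h replicate 1 (-0.55) it was called. RAD21 silencing left it at 8.82 and 9.14 eRPKM at 48 h (-0.09, 95% confidence interval -0.27 to 0.10). MIR4435-2HG shares 727 of its annotated exon bases, where reads cannot be assigned to either gene.

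HRK, best known from neurons, had 3.08 and 3.65 eRPKM in siCtrl cells at 24 h and 5.47, 4.84 and 5.70 at 48 h (log2 fold change 0.60, adjusted p = 5.46e-03). Without siCtrl 24 h replicate 1 neither HRK (0.49, adjusted p = 0.0666) nor BCL2L11 (0.42) was called with time. At 24 h the siRAD21 libraries had 4.81 and 5.04 eRPKM, above siCtrl, with 0.49 (adjusted p = 0.0408), just under the threshold. At 48 h the siCtrl OHT libraries spread from 2.82 to 4.63 eRPKM, all under the siCtrl libraries, with -0.46 (adjusted p = 0.0108). That value was -0.59 without siCtrl OHT 48 h replicate 3 and -0.52 without siCtrl 48 h replicate 2, both called, but -0.28 without siCtrl OHT 48 h replicate 2 (adjusted p = 0.0519). The siRAD21 OHT libraries had 5.75 and 4.60 eRPKM, and the lower of these lay within the range of the siCtrl OHT libraries. The difference was 0.41 (adjusted p = 0.0382), and with a replicate block it was 0.50 (0.503 before rounding, adjusted p = 5.15e-03) and called. It was also called without siCtrl OHT 48 h replicate 3 (0.55) or siRAD21 OHT 48 h replicate 2 (0.56), but was 0.23 (adjusted p = 0.141) without siCtrl OHT 48 h replicate 2 and 0.26 (adjusted p = 0.308) without siRAD21 OHT 48 h replicate 1. With only 50 to 117 reads per library, HRK was among the least precise members.

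BAD, whose protein is silenced by survival kinases, was not called in any of the 15 comparisons. At 48 h it had 25.7, 29.0 and 28.2 eRPKM in siCtrl cells, 23.5 and 23.9 in siRAD21 cells, 21.7, 23.4 and 24.7 in siCtrl OHT cells, and 19.1 and 21.0 in siRAD21 OHT cells. The doubly treated libraries were the lowest, at -0.45 against siCtrl cells (SE 0.092, adjusted p = 6.93e-04), and the value passed 0.5 without siCtrl 48 h replicate 1 (-0.50) or siRAD21 OHT 48 h replicate 2 (-0.52). Each treatment alone gave -0.21 (siRAD21, adjusted p = 0.0587) and -0.25 (OHT, adjusted p = 0.0212). BAD shares 404 annotated exon bases with GPR137.

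The other genes of the pathway were read in 5 lists, whose medians and counts describe them. Of 12 other BCL2 family genes 11 were tested, and at 48 h RAD21 silencing raised 4 and lowered 1 (12.6% of all tested genes were called higher and 11.2% lower). BBC3 (PUMA), a p53-induced BH3-only gene, had a mean of 19.2 eRPKM in siCtrl and 38.5 in siRAD21 cells, with no overlap (0.99 on the log2 scale, adjusted p = 1.98e-06). The protective BCL2L2 (BCL-W) rose by 0.68 (adjusted p = 3.63e-07), BCL2L13 by 0.68 and BCL2A1 by 0.63 (adjusted p = 0.0421), while BCL2L12 was lower, at -0.71 (adjusted p = 2.74e-05). With OHT, BCL2A1, another protective gene, was higher in siCtrl (1.49, from 0.652 to 2.71 eRPKM on average) and in siRAD21 cells (1.41). BNIP3 was also higher in both (0.70 and 0.61). BNIP3L was called lower in siRAD21 cells (-0.84), and its value in siCtrl cells (-0.47, adjusted p = 1.61e-06 in limma) was short of the threshold. At 24 h BNIP3L was called lower with OHT in siCtrl (-0.55) and in siRAD21 cells (-0.59). BCL2L14 was called lower with OHT at 48 h in siCtrl cells (-0.54) with groups that overlapped.

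Downstream of mitochondria, 15 of 15 apoptosome and caspase genes were tested. RAD21 silencing lowered 3 and raised 0 of them at 48 h (11.2% of all tested genes were called lower and 12.6% higher). The 3 included CASP6 (a mean of 17.0 eRPKM in siCtrl and 10.4 in siRAD21 cells, -0.68 on the log2 scale, adjusted p = 6.97e-05) and the nuclease ENDOG (-0.75). OHT lowered 3 and raised 1 in siCtrl cells (10.1% of all tested genes were called lower and 7.78% higher), and lowered 3 and raised 1 in siRAD21 cells (16.2% lower and 12.4% higher). The pair that starts the caspase cascade was lower with OHT in both: APAF1 by -0.74 and -0.79, and CASP9 by -0.57 and -0.66. CASP6 (-0.58) and DFFB (0.53) were the others in siCtrl cells, and CASP2 (-0.50) and DFFA (0.57) those in siRAD21 cells.

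Among 8 inhibitors of apoptosis 7 were tested, with a median upon RAD21 silencing at 48 h of 0.50 on the log2 scale (0.505 before rounding). Silencing raised 4 and lowered 0 of them (12.6% of all tested genes were called higher and 11.2% lower). The 4 raised were BIRC3 (from 7.53 to 16.9 eRPKM, 1.12), BIRC7 (0.95), XIAP (0.79), which binds active caspases, and CFLAR (0.505), which blocks caspase 8. In siRAD21 cells OHT lowered BIRC7 from 4.21 to 0.497 eRPKM (-2.24, adjusted p = 1.09e-05), and its interaction was called (-1.85, adjusted p = 3.40e-03). In siCtrl cells 0 inhibitors were called with OHT (17.9% of all tested genes were). The adjusted p was below 0.05 in limma for 5 inhibitors, whose changes were short of 0.5. Of all 14993 tested genes, 7991 had such an adjusted p.

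Of 11 death receptor genes 7 were tested. RAD21 silencing at 48 h raised the receptors FAS (8.70 eRPKM in siCtrl and 18.8 in siRAD21 cells, 1.07 on the log2 scale, adjusted p = 9.46e-09) and TNFRSF10B (0.56). It lowered 0 of the 7, whose median was 0.46. Of all tested genes 12.6% were called higher and 11.2% lower. With OHT 0 were called in siCtrl cells (17.9% of all tested genes were), and 4 had an adjusted p below 0.05 in limma with changes short of 0.5. TRADD was lower with OHT in siRAD21 cells (-0.70). Among 12 regulators of BCL2 family proteins, RAD21 silencing raised 3 and lowered 0 at 48 h, against the same shares of all tested genes. The 3 were FBXW7, part of the ligase that marks MCL1 and Myc for degradation (0.75), FOXO1, a transcription factor of BCL2L11 (0.61), and BAG1, a BCL2-binding co-chaperone (0.58). BAG1 was higher with OHT as well, by 0.71 in siCtrl and 0.61 in siRAD21 cells, and DDIT3 by 0.60 in siRAD21 cells.

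**Figure D4:**
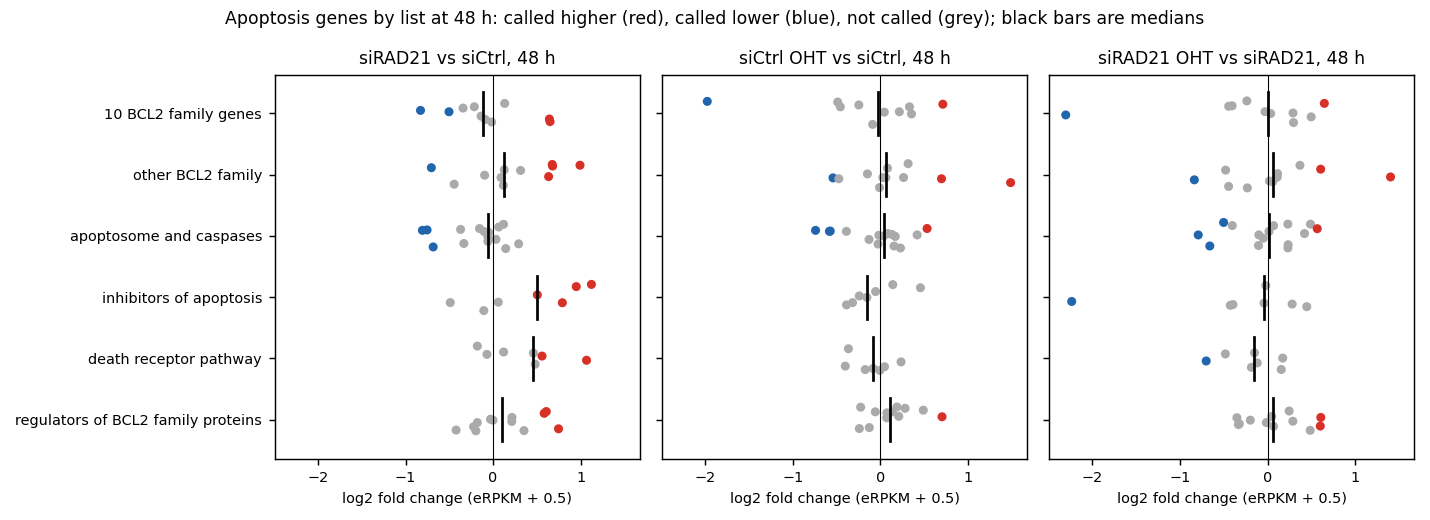
Log2 fold change (of eRPKM + 0.5) at 48 h of the 10 members and of the tested genes of 5 lists of the apoptosis pathway in 3 comparisons; each point is a gene (red called higher, blue called lower, grey not called), spread vertically at random, and black bars are medians. With siRAD21 the 7 tested inhibitors of apoptosis have a median of 0.505 and 0 genes called lower (11.2% of all tested genes were). With OHT the points furthest left are BMF in siCtrl cells (-1.98) and BMF and BIRC7 in siRAD21 cells (-2.31 and -2.24).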

How the data were processed

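RNA-seq libraries (Ribo-Zero, TruSeq RNA v2 without strand, 50-bp reads) were made by the authors, who masked or trimmed bases of quality under 20, aligned reads to hg19 with TopHat2 2.0.8, removed PCR duplicates and deposited values per gene; featureCounts 1.4.5 and SAMtools are named in the submitters' processing notes. The annotation used is not given in the sources used here. The deposited values are eRPKM (RPKM over exons). Whole reads, to within 0.01 of a read, were recovered from them for all 22040 genes with a value above 0. Groups came from the labels; the methods speak of biological replicates.

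All 18 libraries entered 1 limma 3.58.1 fit (R 4.3.3) on log2(eRPKM + 0.5), with 8 group means and a variance trend, for genes with a mean of at least 1 eRPKM, and Benjamini-Hochberg adjustment over all 14993. The fit was tested on simulated data. It keeps both siRAD21 OHT libraries at 48 h; averaging them changed no call of a member. Replicate numbers paired siCtrl with siCtrl OHT at 48 h (deviations from group means correlated at 0.258, 0.130 and 0.157). Same numbers of siRAD21 at 48 h also correlated with siCtrl (0.099 and 0.146) and siCtrl OHT (0.168 and 0.111). Those of siRAD21 OHT correlated with the other groups at -0.026 to 0.032. The main fit holds no replicate block. Alternatives were other pseudocounts, filters, scalings and thresholds, the groups compared only, a replicate block, no variance trend, voom on recovered reads, leaving out each library and, chosen after seeing the data, undoing duplicate removal and crossing the numbers of siCtrl 24 h. The members, gene lists and tests were chosen with earlier results of these data known. Named genes were all members and, per list and comparison at 48 h, up to 4 called genes by size of change; BCL2A1 with siRAD21 and the BIRC7 interaction were added after their values were seen. A gene of the lists and a gene by likeness to BMF that these rules select are not reported here. Tables and figures used matplotlib 3.10.9, numpy 2.4.6 and pandas 2.3.3 under Python 3.11.15.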

Additional observations from a re-analysis of the deposited data

Results flagged for a closer look

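The effect of RAD21 silencing on BMF differed between the time points: the 48 h effect minus the 24 h effect was -0.96 on the log2 scale (SE 0.211, adjusted p = 5.17e-03, limma with Benjamini-Hochberg adjustment), from 0.13 at 24 h to -0.83 at 48 h. Both siRAD21 libraries were above both siCtrl libraries at 24 h, and both were below all 3 siCtrl libraries at 48 h. Over the alternatives in which BMF was tested the difference ranged from -1.06 to -0.86.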

How the results depend on the processing

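Over 15 comparisons and all alternatives, the log2 fold changes of the members gave 2735 values, of which 2636 kept their side of the thresholds, 13 lost a call, 86 gained one and 0 called values reversed. The 86 include the gains with no fold threshold, a setting that can only add calls. Of the 2636, 83 that were not called, reported at 0.122 or less in size, changed sign. Scaling moved which genes were called higher: 44.5% of calls with time in siCtrl cells against 63.4% with median centring, 69.1% against 55.5% with quantile normalization for siRAD21 at 24 h, and 36.0% against 48.6% for OHT in siRAD21 cells at 24 h. Depth limits BMF, BIK and HRK most, and duplicate removal BCL2L1 and MCL1.

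With a mean of at least 5 eRPKM, BCL2, BMF and HRK were not tested; members called fell to 0 for OHT at 24 h in siCtrl and in siRAD21 cells and for the siRAD21 effect at 48 h minus 24 h, and to 1 for OHT at 48 h in either cells, for siRAD21 OHT against siCtrl OHT at 48 h, for siRAD21 OHT against siCtrl at 24 and 48 h and for time. With no fold threshold they were 2 (siRAD21), 4 (OHT in siCtrl), 3 (OHT in siRAD21) and 1 (siRAD21 OHT against siCtrl OHT) at 24 h, and 8 (OHT in siCtrl), 7 (OHT in siRAD21), 7 (siRAD21 OHT against siCtrl OHT), 8 (siRAD21 OHT against siCtrl) and 1 (interaction) at 48 h, 8 with time and 3 for the siRAD21 effect at 48 h minus 24 h. For siRAD21 at 24 h, a pseudocount of 0.1 and voom each called 1 (HRK). For OHT at 48 h, voom called 4 in siCtrl and quantile normalization 4 in siRAD21 cells. For the siRAD21 effect at 48 h minus 24 h, fitting the groups compared alone and undoing duplicate removal each called 2 (HRK or BCL2L1 in addition), and undoing it called 1 in the interaction at 48 h. For the OHT effect at 48 h minus 24 h, a pseudocount of 1 (BMF), voom (HRK) and the replicate block (HRK) each called 1.

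The replicate block ended the call of BID with siRAD21 at 48 h (-0.47) and made HRK a call in siRAD21 OHT against siCtrl OHT cells at 48 h (0.50); it changed no other call of a member beside HRK in the OHT effect. In siCtrl cells at 24 h the same numbers correlated at -0.134 with siCtrl OHT; a block with them crossed called 3 members for the OHT effect at 48 h minus 24 h and 2 with time. Without 1 library, members called ranged from 0 to 1 (siRAD21 OHT against siCtrl OHT, 24 h), 1 to 2 (siRAD21 OHT against siCtrl, 24 h), 3 to 4 (siRAD21, 48 h), 2 to 4 (OHT in siCtrl, and siRAD21 OHT against siCtrl, 48 h), 2 to 3 (OHT in siRAD21, and siRAD21 OHT against siCtrl OHT, 48 h), 1 to 4 (time) and 0 to 2 (OHT effect, 48 h minus 24 h, 2 without siCtrl OHT 48 h replicate 3).

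Of all tested genes, a mean of at least 5 eRPKM left 740 of 1264 calls (siRAD21), 742 of 1316 (OHT in siCtrl), 1024 of 1785 (OHT in siRAD21), 610 of 970 (siRAD21 OHT against siCtrl OHT) and 1186 of 1969 (against siCtrl) at 24 h, and 2289 of 3559, 1653 of 2684, 2794 of 4281, 1507 of 2431 and 2769 of 4203 at 48 h in that order, with 720 of 1094 in the interaction and 1152 of 1865 with time. No fold threshold gave 3870, 3975, 5276, 3000 and 5154 at 24 h, 8650, 7991, 9061, 6777 and 8944 at 48 h, 2587 in the interaction, 6774 with time, 3236 for siRAD21 and 625 (of 266) for OHT at 48 h minus 24 h. That 266 became 96 with the groups compared alone, 130 without siCtrl 24 h replicate 1 and 114 without siCtrl OHT 24 h replicate 1. The interaction at 24 h had 0 calls, and 5 with no filter, 12 with quantile normalization, 4 with the block, 8 with crossed numbers and 19 with voom. The cause was not tested.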
